A study of Mus musculus with 5 samples.

Results

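Small nucleolar RNAs (snoRNAs) are short non-coding RNAs that work as guides in protein-RNA particles. C/D snoRNAs, which carry C and D sequence boxes, direct 2′-O-methylation by fibrillarin, and H/ACA snoRNAs, which end in an ACA box, direct pseudouridylation by dyskerin. Most act on ribosomal RNA in the nucleolus, a few are needed to cleave the ribosomal precursor, and the small Cajal body RNAs (scaRNAs) guide the same modifications on spliceosomal RNAs. In mammals most are cut out of the introns of host genes, many of which encode ribosomal proteins or factors of translation, so that the mature RNA comes from a spliced-out intron. The members were the rows with the biotype snoRNA in a table comparing reprogramming-factor with control cardiomyocytes, 61 of 12446 listed genes. By name they were 5 C/D (Snord), 41 H/ACA (Snora), 8 scaRNA (Scarna) and 7 with other names, under 53 distinct symbols.

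RNA was sequenced from heart muscle cells isolated from male C57BL/6 mice. The OSKM-CMs group (3 libraries, replicates 1, 2 and 3) had received adeno-associated virus vectors for Oct4 with a His6 tag, Sox2 with a Flag tag, Klf4 with an HA tag and Myc with a V5 tag. The Control-CMs group (2 libraries, replicates 3 and 5) had received such a vector for blue fluorescent protein, at 4 times the titre of each factor vector. Injection into the chest cavity was at 8 weeks, the stated age is 12 to 14 weeks, and all vectors used the cardiac troponin T promoter (cTnT), which is active in cardiomyocytes. Reads over the listed genes ranged from 2691797 to 3861806 a library. Members had between 12 and 4516 reads over the 5 libraries, with a median of 66, and 26 had fewer than 50. Below, the reads or levels of a gene are given in the order OSKM-CMs replicates 1, 2 and 3, then Control-CMs replicates 3 and 5.

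Of the 61 rows, 56 matched GENCODE M21 (mouse build GRCm38) by identifier, and their sequences were searched on the RNA strand for the box letters. TGATGA within the first 20 bases together with CTGA within the last 12, letters of the C and D boxes, stood in 11 members (19.6%), against 19.3% of all 1558 snoRNA and scaRNA transcripts of M21 and 0.0241% of 4151 miRNA, snRNA and misc_RNA transcripts. ACA followed by 2 to 4 bases at the 3′ end stood in 40 members (71.4%), against 44.3% of the M21 snoRNA and scaRNA transcripts and 5.95% of the other small RNAs. By name, 34 of 36 matched H/ACA members and 0 of 5 C/D members ended in these ACA letters. The table held few short members: 3 of the 56 (5.36%) were under 100 nt, against 29.7% of the M21 snoRNA and scaRNA transcripts. Read selection by length in library making was not tested. The sequences shown, in 3 sets, are all from GRCm38, 5′ to 3′ and written as DNA. The first is the cluster within Taf1d, on the plus strand of chromosome 9, because it held the largest differences. SNORA18 lies at chr9:15313802-15313932, SNORA8 at chr9:15314845-15314981, snoZ40 at chr9:15315522-15315595, SNORA32 at chr9:15316489-15316588 and SNORA25 at chr9:15316676-15316808. Capitals mark the C and D letters in snoZ40 and the ACA letters in the others, and in snoZ40 an ACA also directly follows the D letters.
SNORA18: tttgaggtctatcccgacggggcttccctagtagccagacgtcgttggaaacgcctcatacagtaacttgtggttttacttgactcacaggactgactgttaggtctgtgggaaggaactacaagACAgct
SNORA8: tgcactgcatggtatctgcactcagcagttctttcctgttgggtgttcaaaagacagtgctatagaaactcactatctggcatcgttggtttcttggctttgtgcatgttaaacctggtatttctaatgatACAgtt
snoZ40: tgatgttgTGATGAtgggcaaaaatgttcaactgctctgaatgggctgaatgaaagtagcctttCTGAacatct
SNORA32: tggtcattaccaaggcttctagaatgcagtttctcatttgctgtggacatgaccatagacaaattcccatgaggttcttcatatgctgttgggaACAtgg
SNORA25: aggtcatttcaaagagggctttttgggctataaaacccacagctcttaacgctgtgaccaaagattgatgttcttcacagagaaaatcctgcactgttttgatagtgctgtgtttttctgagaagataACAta

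The second set holds members with C and D letters that rose under names giving no class, snoU2_19 (chr9:15326464-15326539, minus strand) and snoU6-77 (chr11:69668852-69668995, minus strand). U3 (chr10:40258467-40258680, plus strand), which M21 names Rnu3a, is shown beside them because it is the best known cleavage snoRNA and its C box lies inside the molecule. Capitals mark the C and D letters found in the search windows, and U3 has only the D letters in capitals, since TGATGA was not in its first 20 bases.
snoU2_19: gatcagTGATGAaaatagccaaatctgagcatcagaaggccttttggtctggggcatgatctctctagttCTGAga
snoU6-77: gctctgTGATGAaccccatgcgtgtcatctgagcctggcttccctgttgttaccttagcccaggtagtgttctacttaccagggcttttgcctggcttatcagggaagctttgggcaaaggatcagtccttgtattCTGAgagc
U3: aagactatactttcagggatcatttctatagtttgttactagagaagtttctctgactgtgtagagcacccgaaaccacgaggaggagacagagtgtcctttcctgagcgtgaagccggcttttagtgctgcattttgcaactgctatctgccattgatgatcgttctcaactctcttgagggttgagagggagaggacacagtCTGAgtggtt

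The third set is a pair of near-identical SNORA55 copies in introns of Pabpc4, shown because 1 copy passed the test and the other did not. The first copy (ENSMUSG00000064655, chr4:123291344-123291474) and the second (ENSMUSG00000065778, chr4:123293152-123293282), both on the plus strand, were identical at 127 of 131 bases (96.9%). The substitutions from the first to the second were T28C, T29C, T96C and C131T, with positions counted from 1 at the 5′ end. Capitals mark the ACA letters.
SNORA55, first copy: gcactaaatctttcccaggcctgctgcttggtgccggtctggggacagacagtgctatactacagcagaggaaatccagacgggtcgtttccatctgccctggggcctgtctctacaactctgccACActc
SNORA55, second copy: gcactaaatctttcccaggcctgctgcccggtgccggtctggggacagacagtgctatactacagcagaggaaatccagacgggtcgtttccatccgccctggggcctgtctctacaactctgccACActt

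Every snoRNA that passed the test was higher in OSKM-CMs. Of the 61 members, 15 rose (24.6%; limma, Benjamini-Hochberg adjusted p below 0.05 over all 12446 genes), where 16.9% of all listed genes rose. No member fell by the same test, at an unadjusted p below 0.05 either (0 members), where 14.8% of all genes fell. A further 5 members were higher with an unadjusted p below 0.05 only. The median log2 difference, OSKM-CMs minus Control-CMs on log2 of scaled CPM (CPM, reads relative to library size, scaled between libraries) plus 1, was 0.51 over the members and 0.04 over all genes, and 47 members had a positive difference. In 27 members (44.3%) all 3 OSKM libraries lay above both controls, against 29.6% of all genes. In 0 members did all 3 lie below, against 26.5% of all genes, and in 34 the groups overlapped. Every listed gene had 1 CPM or more in at least 2 libraries. Of the 15 members that rose, 6 reached 1 CPM in no control library, so they had to lean towards OSKM-CMs. Outside the Taf1d cluster and the rows named SNORA25, 9 of 54 rose (16.7%), a share near that of all genes, with a median difference of 0.37. The median of these 54 was 0.18 without Control-CMs replicate 3 and 0.68 without replicate 5. With library totals alone, where the median of all genes moved to 0.41, 26 of the 61 members were higher (42.6%), as were 36.4% of all genes. In libraries from bulk cells, fewer cells of a type and less RNA per cell cannot be told apart.

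**Figure D1:**
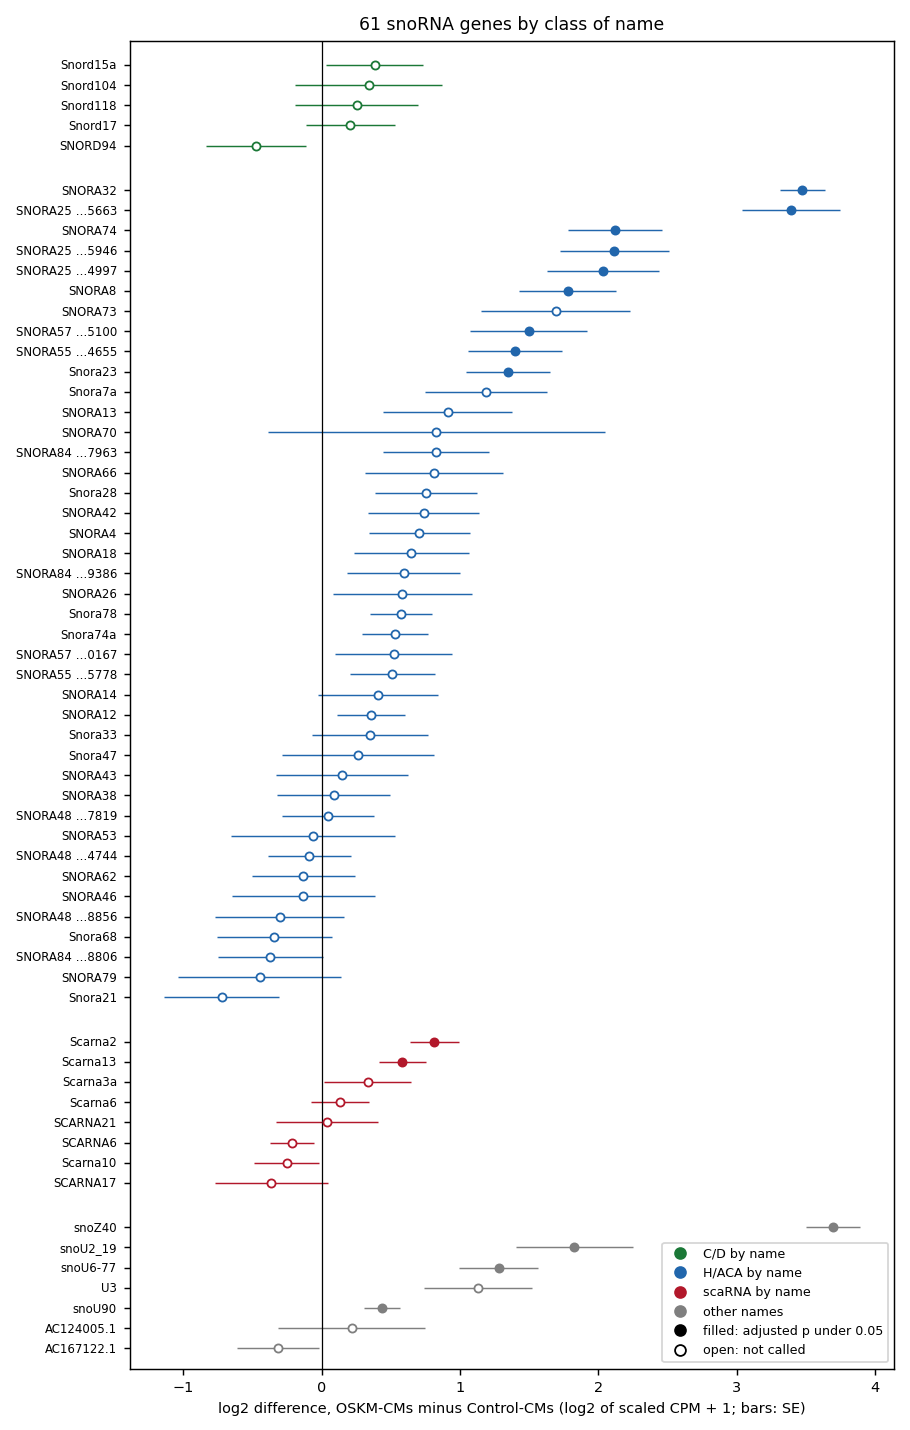
The log2 difference (OSKM-CMs minus Control-CMs, log2 of scaled CPM + 1) of each of the 61 snoRNA genes on the x axis, with its standard error as a bar, grouped by class of name; endings of identifiers tell rows of one symbol apart. Filled points passed the adjusted p of 0.05 and open points did not; all 15 filled points lie right of 0, led by snoZ40, SNORA32 and a SNORA25 row above 3.

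The members took a small share of reads, higher in OSKM-CMs and uneven between the 2 controls. Their share of reads was 0.237% (95% Wilson interval 0.231 to 0.243), 0.209% (0.203 to 0.214) and 0.198% (0.193 to 0.203) in the OSKM libraries. It was 0.0867% (0.0837 to 0.0899) in Control-CMs replicate 3 and 0.139% (0.135 to 0.143) in Control-CMs replicate 5. The intervals cover counting error only. All 3 OSKM shares were above both control shares, at 0.214% ± 0.0202 (SD, n = 3) against 0.113% ± 0.0370 (SD, n = 2). On the scale used for the tests the summed level was 2134, 1860 and 1736 scaled CPM against 982 and 1742, so the groups overlapped, at 1910 ± 203 against 1362 ± 538 (1.40-fold). Transcripts of mitochondrial DNA took 11.1%, 10.5% and 9.76% of OSKM reads and 21.2% and 24.7% of control reads, and their part in the shares was measured directly: of nuclear reads alone, snoRNAs took 0.266%, 0.233% and 0.219% against 0.110% and 0.185%. Control-CMs replicate 5 exceeded replicate 3 in 42 of 61 members (68.9%, against 51.9% of all genes), by a median log2 difference of 0.67 (0.01 over all genes). The median difference was 0.27 without Control-CMs replicate 3 and 0.75 without Control-CMs replicate 5. Between these 2 fits SNORD94 moved from -1.04 to 0.10 and SNORA53 from -0.93 to 0.80. Each such fit leaves 1 control, so the spread between controls cannot enter its p-values. For this reason only differences are given for these fits.

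**Figure D2:**
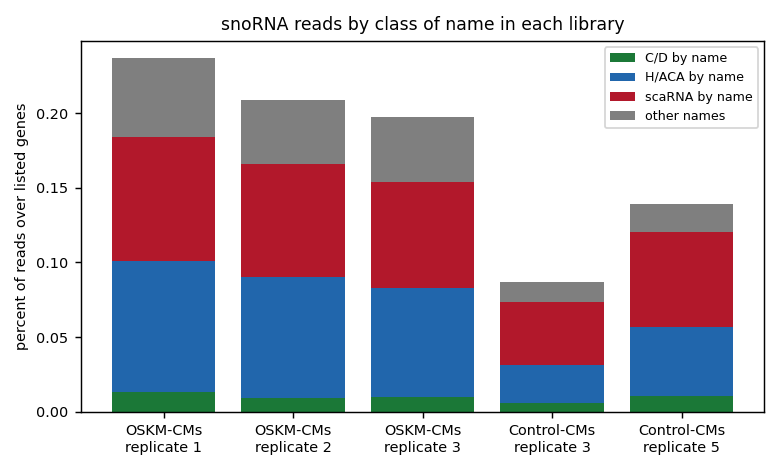
Percent of reads over listed genes that fell on snoRNA rows (y axis) in each of the 5 libraries (x axis), stacked by class of name. The OSKM-CMs bars reach 0.198% to 0.237%, Control-CMs replicate 5 reaches 0.139% and Control-CMs replicate 3 reaches 0.0867%.

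By class of name, 9 of 41 H/ACA members rose (median log2 difference 0.58), 0 of 5 C/D members (median 0.25), 2 of 8 scaRNAs (median 0.08) and 4 of 7 members with other names (median 1.13), where 16.9% of all genes rose. The shares of the H/ACA members (22%) and the scaRNAs (25%) were near that of all genes. Summed H/ACA levels were 793, 723 and 641 scaled CPM against 290 and 576 (1.66-fold on the means), with all OSKM libraries above both controls. Summed C/D levels were 120, 84.6 and 86.8 against 66.6 and 134, and those of scaRNAs 746, 672 and 622 against 473 and 797, both overlapping. Names and letters sorted the members differently: 4 of the 11 members with C and D letters rose (median 0.34), and all 4 bear names outside the Snord series. Among the 39 members with ACA letters only, 7 rose (median 0.53). Without Control-CMs replicate 3 the medians were 0.40 for H/ACA, -0.38 for C/D, -0.27 for scaRNA and 0.57 for other names. The difference between the classes was not tested.

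The largest differences of all members were those of 3 snoRNAs within Taf1d, snoZ40, SNORA32 and a SNORA25 row. Taf1d (ENSMUSG00000031939, chr9:15306214-15316991, plus strand) encodes a subunit of the selectivity factor with which RNA polymerase I starts ribosomal RNA synthesis, and it holds 5 of the members. M21 gives it 16 transcripts, of which the 5 protein-coding ones end 1698 bases or more before the first snoRNA, and the snoRNAs lie within longer transcripts of other types. Each snoRNA is intronic in most of the transcripts that span it and exonic in 1 or 2 of them, such as retained-intron forms. snoZ40 (ENSMUSG00000064797), a C/D snoRNA by its letters, had 237, 245 and 176 reads against 15 and 13. Its level of 71.0 ± 11.8 (SD, n = 3) scaled CPM was 15.7-fold that of controls, 4.52 ± 0.427 (SD, n = 2; log2 difference 3.69, SE 0.19, limma adjusted p = 2.28e-08). SNORA32 (ENSMUSG00000065265) had 372, 464 and 331 reads against 34 and 30, a rise of 12.2-fold from 10.3 ± 0.845 to 125.9 ± 20.8 scaled CPM (log2 difference 3.47, SE 0.16, limma adjusted p = 7.32e-09). In both, every OSKM library lay far above both controls, and the controls differed little from each other. The SNORA25 row within Taf1d (ENSMUSG00000065663) had 40, 46 and 31 reads against 0 and 2, a ratio of 39.1 (exact 95% counting limits 10.6 and 327; log2 difference 3.39, SE 0.35, limma adjusted p = 9.31e-06). SNORA8 (ENSMUSG00000065226) had 17, 16 and 15 reads against 2 and 3, a 6.41-fold rise (log2 difference 1.78, SE 0.35, limma adjusted p = 0.00164). SNORA18 (ENSMUSG00000065282), the most 5′ of the 5, had 4, 7 and 4 reads against 2 and 2 and did not pass (log2 difference 0.65, SE 0.42, limma adjusted p = 0.261). Together the 5 summed to 216 ± 33.9 scaled CPM in OSKM-CMs and 16.6 ± 0.575 in controls, 13.0-fold. They gave 10.2%, 13.4% and 10.5% of the snoRNA reads of the OSKM libraries and 1.74% and 0.931% of those of the controls. With library totals alone 4 of the 5 were called as well. The median difference of the 5 was 3.05 without Control-CMs replicate 3 and 3.40 without replicate 5. SNORA25, SNORA8 and SNORA18 reached 1 CPM in neither control library, so they had to lean towards OSKM-CMs to be listed.

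Taf1d itself had 81, 76 and 79 reads against 23 and 28 and rose by less than its 3 most changed snoRNAs (log2 difference 1.52, SE 0.21, limma adjusted p = 9.1e-05). The snoRNA differences exceeded that of Taf1d by 2.17 for snoZ40, 1.95 for SNORA32, 1.87 for SNORA25 and 0.25 for SNORA8, and SNORA18 lay 0.88 below it, all on the log2 scale. The 1 CPM added before logs shrinks differences of genes with few reads, so these gaps depend on it. By the fold of mean levels SNORA8 stood at 6.41, Taf1d at 3.09 and SNORA18 at 2.50. Per length (scaled RPKM, which also divides by gene length), SNORA32 was the second highest member in OSKM-CMs, at 1271 ± 210, and snoZ40 the fourth, at 972 ± 161, while in controls they stood at 104.4 ± 8.54 and 61.9 ± 5.85. Taf1d stood at 15.1 ± 0.598 scaled RPKM in OSKM-CMs and 4.89 ± 0.710 in controls. Beyond the 3′ end of Taf1d, on the opposite strand, snoU2_19 (ENSMUSG00000077394) lies within an intron of the centriolar gene Cep295, listed under 5830418K08Rik. It had 16, 10 and 8 reads against 2 and 0, a ratio of 11.4 (95% exact counting interval 2.91 to 97.6; log2 difference 1.83, SE 0.42, limma adjusted p = 0.00490). It missed the threshold on the scale of log2(RPKM + 1), with an adjusted p of 0.0583. Cep295 did not pass, with 31, 29 and 34 reads against 21 and 22 (log2 difference 0.49, SE 0.26, limma adjusted p = 0.171). How reads over a snoRNA and its unspliced host were shared out is not given in the sources used here, and the 2 sources of reads cannot be told apart.

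**Figure D3:**
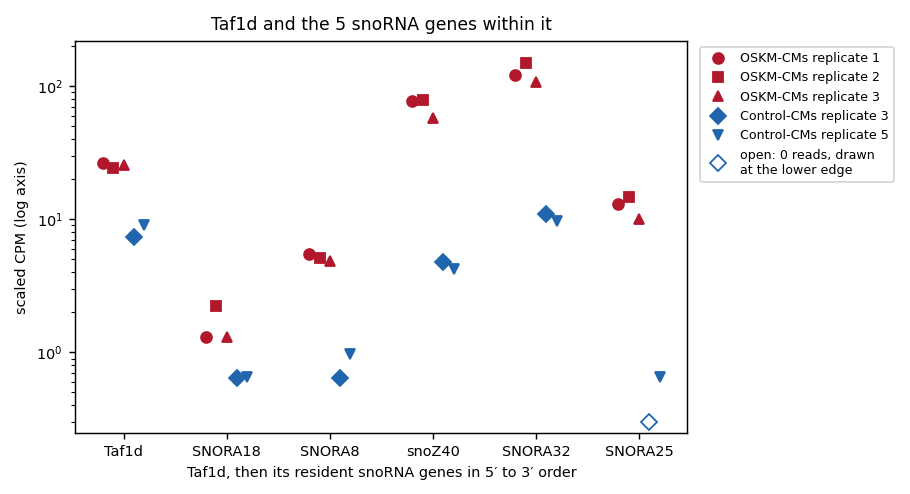
Level in scaled CPM (y axis, log scale) of Taf1d and of the 5 snoRNA genes within it (x axis, in 5′ to 3′ order) in each of the 5 libraries; red marks are OSKM-CMs, blue marks Control-CMs, and the open mark is a library with 0 reads drawn at the lower edge. All red marks lie above all blue marks for each gene, with the widest gaps at snoZ40, SNORA32 and SNORA25.

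Several members were read in OSKM-CMs and scarcely or not in controls. The other 2 rows named SNORA25, which had no match in M21, had 11, 9 and 11 reads (ENSMUSG00000075946) and 8, 12 and 9 reads (ENSMUSG00000064997) against 0 and 0 in both cases. Their mean OSKM-CMs levels were set against a floor of 3 reads summed over both controls (0.484 scaled CPM). The first was 6.91-fold this floor (limma adjusted p = 0.00111) and the second 6.46-fold (limma adjusted p = 0.00169). Such folds leave out counting error in the OSKM-CMs reads. Rows of one family name can share reads, so the 3 SNORA25 rows are uncertain as separate genes. The SNORA57 row within St3gal2 (ENSMUSG00000065100) had 7, 5 and 5 reads against 0 and 0, or 3.79-fold the same floor (limma adjusted p = 0.0160). It was no longer called without OSKM-CMs replicate 1 (adjusted p = 0.0877). Its other copy (ENSMUSG00000070167), 95.9% identical, had 6, 9 and 4 reads against 2 and 5 and did not pass (log2 difference 0.52, limma adjusted p = 0.380). Snora7a, in the ribosomal protein gene Rpl32, had 4, 5 and 3 reads against 0 and 0 and did not pass (limma adjusted p = 0.0542). In all, 9 members reached 1 CPM in no control library, and 6 of these were called higher. Every listed gene had 1 CPM or more in at least 2 libraries, so these 9 met that level through OSKM-CMs alone and had to lean that way. Conversely, 0 members reached 1 CPM in no OSKM library.

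Of the cleavage snoRNAs, U3 and SNORA73 had every OSKM library above both controls but did not pass the test, and Snord118 overlapped. U3 (ENSMUSG00000065870), needed for the first cuts of the ribosomal precursor, had 856, 591 and 691 reads against 218 and 473, a level of 231 ± 44.6 scaled CPM against 112 ± 59.0. The controls stood apart from each other, at 70.1 and 153.5 scaled CPM, and the difference between groups did not pass (log2 difference 1.13, SE 0.39, limma adjusted p = 0.101). Without Control-CMs replicate 3 the difference was 0.57, and without replicate 5 it was 1.69. SNORA73 (ENSMUSG00000064380), the U17 family of H/ACA snoRNAs that acts in cleavage rather than modification, lies in an intron of Rpsa. It had 123, 115 and 113 reads against 17 and 66, with the OSKM libraries close together and above both controls (37.9 ± 1.79 against 13.4 ± 11.3 scaled CPM; log2 difference 1.69, SE 0.54, limma adjusted p = 0.0731). Leaving out Control-CMs replicate 3 or 5 brought the difference to 0.79 or 2.60. Snord118 (U8), needed for maturation of the large subunit RNAs, had only 5, 8 and 6 reads against 2 and 9, and the groups overlapped (log2 difference 0.25, SE 0.44, limma adjusted p = 0.703).

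Protein partners of U3 in the small subunit processome were measured beside it, from a list of 11 genes. Of these, 7 rose (63.6%) and 0 fell, where 16.9% of all genes rose and 14.8% fell. The median log2 difference of the 11 was 0.70. Dhx37, the helicase that acts on U3, had 123, 112 and 99 reads against 44 and 42 (log2 difference 1.31, SE 0.18, limma adjusted p = 9.48e-05). Nop14 had 82, 63 and 74 reads against 23 and 36 (log2 difference 1.25, SE 0.24, limma adjusted p = 0.00123). Utp3, Heatr1, Imp4, Wdr43 and Utp14a, further processome factors, rose by 0.96, 0.81, 0.72, 0.70 and 0.62 on the log2 scale. Some of these calls were lost in settings that kept both controls. Heatr1 missed the threshold in limma without trend or robust fitting (adjusted p = 0.0708). Imp4 missed it without OSKM-CMs replicate 2 (limma adjusted p = 0.0535) and Utp14a without OSKM-CMs replicate 1 (limma adjusted p = 0.152). Utp20 and Imp3 had differences of -0.24 and -0.20, Mphosph10 0.52 and Rrp9 0.31, none of which passed. Without Control-CMs replicate 5 the median of the 11 was 0.59.

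Further members named as H/ACA rose by smaller factors. SNORA74 (ENSMUSG00000088059), which M21 places on chromosome 18 under the name Mir1949 and which held neither the ACA nor the C and D letters, had 45, 44 and 33 reads against 4 and 11, a 5.42-fold rise (log2 difference 2.12, SE 0.34, limma adjusted p = 0.000319). Snora74a, the most read H/ACA member and 50.3% identical to that row, had 963, 811 and 764 reads against 437 and 780, and the groups overlapped (log2 difference 0.53, SE 0.24, limma adjusted p = 0.138). The first SNORA55 copy had 21, 22 and 18 reads against 4 and 8 (log2 difference 1.40, SE 0.34, limma adjusted p = 0.00663), and the second 46, 28 and 23 against 23 and 19 (0.51, SE 0.31, limma adjusted p = 0.228). With 4 substitutions between them, reads may have been shared between the copies, and the difference between them was not tested. Snora23 (ENSMUSG00000064451), in an intron of Ipo7, had 96, 56 and 94 reads against 21 and 41 (log2 difference 1.35, SE 0.30, limma adjusted p = 0.00535). Its difference was 0.91 without Control-CMs replicate 3. Snora78 had 75, 52 and 57 reads against 36 and 44, all OSKM libraries above both controls on the scaled level, and did not pass (log2 difference 0.57, limma adjusted p = 0.0699). SNORA12 had 96, 80 and 92 reads against 49 and 97, and the SNORA48 row in Sec24a 41, 51 and 33 against 30 and 64, both overlapping (log2 differences 0.36 and -0.09). SNORA53, in the gene of the mitochondrial phosphate carrier Slc25a3, had 214, 186 and 179 reads against 110 and 368. Its OSKM values lay between the 2 controls (log2 difference -0.06, SE 0.59, limma adjusted p = 0.952), so its direction depended on the control: 0.80 without Control-CMs replicate 5 and -0.93 without replicate 3. SNORA70 was as uneven, with 18, 22 and 11 reads against 0 and 36. The lowest difference of all members was that of Snora21, in Rpl23, at 3, 4 and 6 reads against 6 and 13 (-0.72, SE 0.41, limma adjusted p = 0.207).

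C/D snoRNAs by name did not pass. Snord17, the most read of them, had 259, 151 and 191 reads against 125 and 229 (log2 difference 0.21, limma adjusted p = 0.670). SNORD94 had 92, 89 and 55 against 72 and 161 (-0.47, limma adjusted p = 0.371). Snord15a had 9, 11 and 10 against 8 and 6 (0.38, limma adjusted p = 0.442), and Snord104 5, 5 and 4 against 0 and 9 (0.34, limma adjusted p = 0.664). In all but Snord15a the OSKM values fell between the controls or overlapped them. Besides snoZ40 and snoU2_19, the members with C and D letters that rose were snoU6-77 and snoU90. snoU6-77 (ENSMUSG00000089542), in an intron of Eif4a1, had 66, 57 and 47 reads against 15 and 30 (log2 difference 1.28, SE 0.28, limma adjusted p = 0.00372). snoU90 (ENSMUSG00000089417), in an intron of the importin gene Kpna4, had 264, 259 and 249 reads against 197 and 183, with little spread in either group (83.3 ± 2.29 against 61.4 ± 2.79 scaled CPM; log2 difference 0.44, SE 0.13, limma adjusted p = 0.0182). It missed the threshold without OSKM-CMs replicate 1 (limma adjusted p = 0.0633) and in limma without trend or robust fitting (adjusted p = 0.0801). Its difference was 0.48 without Control-CMs replicate 3 and 0.39 without replicate 5.

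Among the members named as scaRNAs, Scarna2 and Scarna13 rose. M21 also types snoU90, which rose, and AC167122.1, which did not pass (log2 difference -0.32), as scaRNAs. Scarna2 (ENSMUSG00000088185), a guide for U2 spliceosomal RNA transcribed from its own gene, had 708, 610 and 535 reads against 284 and 427 (200 ± 28.0 against 115 ± 33.4 scaled CPM; log2 difference 0.82, SE 0.18, limma adjusted p = 0.00416). Scarna13 (ENSMUSG00000088789) had 359, 341 and 322 reads against 182 and 282 (110 ± 5.87 against 75.0 ± 23.3; log2 difference 0.58, SE 0.17, limma adjusted p = 0.0171). Without Control-CMs replicate 3 the differences of Scarna2 and Scarna13 were 0.52 and 0.27. Scarna10, the most read member of all, had 878, 832 and 756 reads against 726 and 1324, with the OSKM values between the controls (log2 difference -0.25, SE 0.23, limma adjusted p = 0.461). The remaining 5 rows with scaRNA names had differences from -0.36 to 0.33 and did not pass.

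Because a snoRNA in an intron is made with its host transcript, each member was set beside its host. M21 placed 43 members within 35 listed hosts on the same strand, 34 of them in introns only. Of the rest, 5 had no match, 6 had no containing gene and 7 had hosts not analysed here. Of the 35 hosts 13 rose, 2 fell (Slc25a3 and Ptcd3) and 20 did not pass, with a median log2 difference of 0.19. Of all genes 16.9% rose and 14.8% fell. With library totals alone 20 hosts were higher and 0 lower, where 36.4% of all genes were higher. The 20 members whose host rose had a median difference of 0.87, with 17 positive and 7 called higher. Taf1d alone held 5 of these 20 members and 4 of the 7 that were called. The 21 members whose host did not pass had a median of 0.26, with 15 positive and 3 called higher, and the 2 members whose host fell had -0.06 and -0.47. Across the 43 pairs Pearson's r of the log2 differences was 0.656 and Spearman's rho 0.615, and across the 38 pairs outside Taf1d 0.493 and 0.501. These are descriptions across genes that share libraries and in part hosts. The snoRNA difference exceeded that of its host in 27 pairs, by a median of 0.16 over all pairs. The 1 CPM added before logs understates the differences of members with few reads, so these gaps depend on it.

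**Figure D4:**
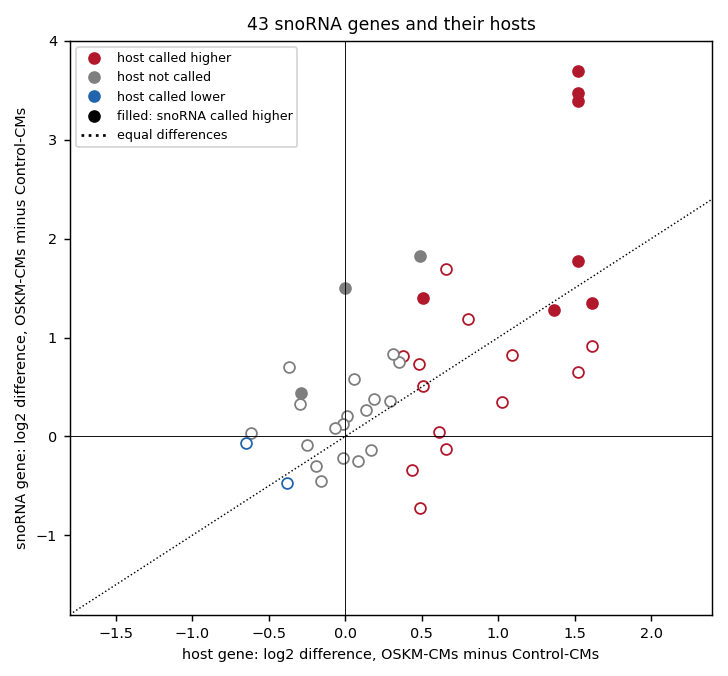
Log2 difference (OSKM-CMs minus Control-CMs) of 43 snoRNA genes (y axis) against that of their host genes (x axis); the dotted line marks equal differences. Colour gives the call of the host and filled points are snoRNAs called higher. Of the 10 filled points 7 have a host that rose, 4 of them within Taf1d. For Taf1d, 3 points lie far above the line.

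Several hosts that rose serve ribosome making or translation. Ipo7, an importin that carries ribosomal proteins into the nucleus, had 2167, 1665 and 2094 reads against 622 and 662 (log2 difference 1.61, SE 0.13, limma adjusted p = 1.37e-06). Its intron snoRNAs Snora23 (1.35) and SNORA13 (0.91, not passing) had lower differences than the host. Eif4a1, the helicase of translation initiation, had 1213, 1037 and 1447 reads against 511 and 437, and its difference of 1.37 was close to the 1.28 of snoU6-77. Pabpc4, a poly(A)-binding protein gene, rose by 0.51 with 1370, 1572 and 1191 reads against 929 and 1002. Its call was lost in limma without trend or robust fitting (adjusted p = 0.0875). Rpsa, a ribosomal protein gene, rose by 0.66, while its snoRNAs SNORA73 and SNORA62 had 1.69 and -0.13. Iars and Rps12 rose by 1.09 and 1.02 with SNORA84 at 0.83 and Snora33 at 0.35, neither passing. Some members were called higher where their hosts were not. St3gal2, a sialyltransferase gene, had 52, 58 and 60 reads against 51 and 63 while its SNORA57 row was called higher. That row had 0 reads in both controls, so it had to lean towards OSKM-CMs to be listed. Kpna4 had a difference of -0.29 (limma adjusted p = 0.0884) while snoU90 rose by 0.44. Both SNORA57 and snoU90 lost their calls without OSKM-CMs replicate 1. The difference between a snoRNA and its host was not tested.

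Myc binds the letters CACGTG (an E box, the same on both strands), so host promoters were searched for them in windows of 300 bases that span the start site. Windows were found for 28 of 35 hosts in a RefSeq promoter table (GRCm38.p6), and 7 of them held CACGTG, against 8.09% of 27025 genes in that table. Of the 11 matched hosts that rose, 4 held it (36.4%), and the window of Taf1d did not. The 4 are shown with 10 bases on each side, capitals marking the E box. Ipo7 (chr7:110018168-110018193, plus strand) and Eif4a1 (chr11:69672597-69672622, minus strand) hosted members that rose. Iars (chr13:49682051-49682076, plus strand) and Rpl23 (chr11:97782427-97782452, minus strand) hosted members that did not pass. The 27025 genes include genes not listed here, so the hosts and this background are unlike sets. A match of letters is a description and not a bound site, and a part of Myc was not tested.
Ipo7: gggagccagcCACGTGggccgtgtcc
Eif4a1: atcgcctccgCACGTGtaaaggtgct
Iars: ccaatcgccaCACGTGttgtttgtag
Rpl23: gaggtccggtCACGTGgctgagtggg

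Non-coding host genes, best known for the snoRNAs in their introns, were listed in 6 cases, 5 Snhg genes and Gas5. All 6 had every OSKM library above both controls, as had 29.6% of all genes. Of the 6, 5 rose (83.3%), where 16.9% of all genes rose. Snhg5 had 62, 52 and 46 reads against 4 and 6 (log2 difference 2.81, SE 0.29, limma adjusted p = 8.17e-06). Gas5 had 222, 165 and 188 reads against 53 and 75 (1.55, SE 0.19, limma adjusted p = 3.52e-05). Snhg12, Snhg7 and Snhg1 rose by 1.29, 0.93 and 0.88, and Snhg4 did not pass at 0.86 (limma adjusted p = 0.0724). Snhg1 lost its call without OSKM-CMs replicate 1 or 2 (limma adjusted p = 0.0621 and 0.0911). Snhg7 lost its call without OSKM-CMs replicate 1, 2 or 3 (limma adjusted p = 0.0911, 0.0671 and 0.106). Snhg1 had a difference of 0.72 without Control-CMs replicate 3, and Snhg7 had 0.77 without replicate 5. The C/D snoRNAs that Gas5 is known to host were not analysed here. No member matched in M21 was assigned to any of these 6 genes. However, 5 members had no match, and 7, among them Snora74a and SNORA74, were assigned to genes not listed here. Residents of these 6 genes among the members may therefore have been missed.

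In each of 2 sets of core protein genes of the particles, 3 of 4 rose in the reported fit (75%, where 16.9% of all genes rose). Of 4 C/D core genes 3 rose: Nop58 with 157, 134 and 139 reads against 64 and 74 (log2 difference 1.03, SE 0.16, limma adjusted p = 0.000317), the methyltransferase fibrillarin gene Fbl (0.82) and Nop56 (0.67). Nhp2l1, which binds the box motif first, had -0.10 and did not pass. Of 4 H/ACA core genes 3 rose: Nhp2 with 106, 76 and 112 reads against 38 and 42 (1.22, SE 0.21, limma adjusted p = 0.000612), the pseudouridine synthase gene Dkc1 (0.71) and Nop10 (0.50). Gar1 had 15, 12 and 9 reads against 11 and 2 and did not pass (0.82, limma adjusted p = 0.180). Without Control-CMs replicate 3, Dkc1 had a difference of 0.36, so its size rested in part on that library. Without OSKM-CMs replicate 3, Dkc1 and Nop10 missed the threshold (limma adjusted p = 0.101 and 0.0796). Fbl had 0.75 without Control-CMs replicate 3, and Nop56 had 0.55 and Nop10 0.43 without replicate 5. Nop58 and Nhp2 kept their calls in every setting with both controls. Of 16 assembly and transport genes 4 rose (25%) and 0 fell, where 16.9% of all genes rose and 14.8% fell. The 4 were the Dkc1 chaperone Shq1 (1.16), the R2TP ATPase gene Ruvbl1 (0.89), the nucleolar and Cajal body protein gene Nolc1 (0.67) and the cap-binding gene Ncbp1 (0.49). Of 7 trimming and debranching genes 2 rose (28.6%) and 0 fell. The 2 were the exosome nuclease gene Dis3 (0.59) and the poly(A) ribonuclease gene Parn (0.63), and the debranching enzyme gene Dbr1 had -0.17 (limma adjusted p = 0.709). The assembly and transport list had a median of 0.14, and of 0.05 without Control-CMs replicate 3. Within it, Shq1 and Ncbp1 missed the threshold without OSKM-CMs replicate 1 (limma adjusted p = 0.0788 and 0.0744). The trimming list had a median of 0.02, and of -0.09 without Control-CMs replicate 5. Here Dis3 and Parn missed the threshold without OSKM-CMs replicate 1 (limma adjusted p = 0.0951 and 0.125). The lists were chosen with results of these data known, so they are no independent evidence of a direction.

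Other short RNAs did not share one direction. Of 12 snRNA rows 2 rose (16.7%) and 0 fell (median log2 difference 0.08). Of 20 misc_RNA rows 4 rose (20%) and 5 fell (25%, median -0.28). Of 13 miRNA rows 2 rose (15.4%) and 4 fell (30.8%, median -0.98). The shares that rose were near the 16.9% of all genes, of which 14.8% fell. The 4 misc_RNA rows that rose included the RNA of RNase MRP, which cleaves the ribosomal precursor, with 62, 57 and 43 reads against 19 and 23 (log2 difference 1.24, SE 0.25, limma adjusted p = 0.00181). They also included telomerase RNA, which carries an H/ACA domain, with 28, 35 and 29 reads against 17 and 8 (1.18, SE 0.32, limma adjusted p = 0.0121). The 9 rows named 7SK, another abundant small nuclear RNA, had differences from -0.39 to -0.10, and 0 of them passed in either direction. With library totals alone the 7SK rows had 0.02 to 0.30, and without Control-CMs replicate 3 they had -0.70 to 0.34 (median -0.62). Vault RNA rose by 1.12, with 177, 118 and 143 reads against 49 and 85.

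Cell markers of some types differed between the groups. All 8 cardiomyocyte markers were read in every library, summing to 40970 to 52550 scaled CPM in OSKM-CMs and 89350 and 97330 in controls, and 7 of 8 fell (median log2 difference -1.31), Actc1 being the exception. Of 7 listed fibroblast markers 4 rose (57.1%), which were Col1a1, Col1a2, Col3a1 and Postn. The 7 summed to 520 to 1236 against 142 and 229. Of 8 endothelial markers 5 fell (62.5%, summing to 204 to 419 against 549 and 673), and 2 fell with library totals alone. Of 5 listed immune markers none was called (11.5 to 53.5 against 21.1 and 78.1). Of 6 mural markers 2 rose (33.3%) and 4 had negative differences, and their sums overlapped (1957 to 2391 against 2301 and 2321). The 1 listed red cell marker, Hbb-b1, fell (log2 difference -1.69). Of all genes 16.9% rose and 14.8% fell. The part of cell make-up in the snoRNA differences was not tested.

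The authors' deposited table called 18 of the 61 members higher and 0 lower at an FDR below 0.05, with 16.4% of all genes higher. It held all 15 members called here and 3 more, which were U3 (log2 fold change 1.04, FDR 0.00552), SNORA73 (1.46, FDR 0.000127) and Snora7a (5.01, FDR 0.0204). In the authors' deposited table the log2 fold change of SNORA32 was 3.61 and that of the SNORA25 row within Taf1d was 5.34.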

How the data were processed

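The deposited table gave, for each gene, a value in each of 5 libraries, with symbol and biotype. The members and lists were chosen with earlier results of these data known. The build was mm9, and the tools listed in the submitters' processing notes were STAR 2.5.3, HTSeq, Trimmomatic, FastQC and CASAVA 1.8.2. Annotation, strand setting and the handling of reads shared by genes or matching several places are not given in the sources used here. The authors' library values were RPKM, a unit inferred from the values. Beside these the authors gave an average log2 abundance, a log2 fold change, a likelihood-ratio score, a p-value and its FDR.

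Whole reads were recovered from the RPKM (100% of 12446 genes within 0.0001 reads, a common factor settled by the authors' average in 209), tested on simulated data. They cover the listed genes, not the full depth. Levels are CPM scaled by TMM (30% of log ratios and 5% of abundances trimmed), and log2(CPM + 1) of all genes was fitted with limma 3.58.1 (R 4.3.3; abundance trend, robust, 2-sided, Benjamini-Hochberg at 0.05). CPM was used rather than RPKM because 1 read of a short gene is worth several RPKM. The added 1 understates changes of low genes. A floor of 3 reads replaces 0 where a fold is given. The labels do not tie libraries to separate mice, so the p-values reflect the spread of these samples, which may be technical.

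Named genes were all members that passed, all 5 C/D members by name and the 8 H/ACA members with most reads. Also named were cleavage snoRNAs, the hosts of these members, Snhg genes and Gas5, and lists of particle proteins. Other members and small RNAs were named after their values were seen. Hosts and sequences came from GENCODE M21 (GRCm38) by identifier, and promoters from a RefSeq table (GRCm38.p6). No coordinates were taken from mm9. Alternatives changed the added constant, scale, filter, scaling, test and libraries.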

Additional observations from a re-analysis of the deposited data

How the results depend on the processing

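The number of members called higher, 15, was 26 with library totals alone, where the median of all genes moved to 0.41 and 4536 genes were higher and 771 lower. With either other scaling it was 15, and over the other settings that kept all libraries it ran from 10 (of 29 members with a mean of at least 5 CPM) to 19 (on log2(RPKM + 1)), with 18 by limma voom. Leaving out 1 library gave 12 to 21 higher, 0 to 3 lower (3 without Control-CMs replicate 3) and a median difference of 0.27 to 0.75. The snoRNA share was 0.203% to 0.223% in OSKM-CMs and 0.0867% to 0.139% in controls when 1 library was left out, and 0.2396% and 0.147% of nuclear reads alone. Of the 15 called members, some lost their call in settings that kept both controls. These were snoU2_19 on log2(RPKM + 1), SNORA57 without OSKM-CMs replicate 1, and Scarna2 without trend or robust fitting. Scarna13 and snoU90 missed without trend or robust fitting and also without OSKM-CMs replicate 1. The other called members kept their calls in every such setting that tested them. SNORA53 had a difference of -0.93 without Control-CMs replicate 3 and 0.80 without replicate 5, and Ptcd3, lower in the reported fit, had 0.036 (adjusted p = 0.833) with library totals alone. Of 43 named genes that did not pass, 26 changed sign in at least 1 setting, among them Snord17, Snord104, Snord118 and SNORA12 without Control-CMs replicate 3. The cause of these changes was not tested. Members with few reads limit precision, since 1 read is worth 0.259 to 0.371 CPM before scaling. Counts by class, host and list with library totals, and medians by class and list without 1 control, were added after seeing the data. No paired analysis was possible because just 1 replicate number occurs in both groups.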
